A study of Rattus norvegicus with 36 samples.

Results

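Lysyl oxidase (Lox) and 9 genes of the liver's collagen matrix and stellate cells were followed across the doses of PBDE47, a brominated flame retardant. The others were Loxl1, Col1a1, Col1a2, Col3a1, Sparc, Dcn, Lrat, Des and Rgs5. Lox was chosen by its log2 values at 48.5 and 485 mg/kg, which lay far below vehicle. The others were chosen by name, with earlier results of these data known, to ask whether they were low where Lox was. Matching the platform's gene symbols gave 14 probe sets for these 10 genes, of 31042 probe sets tested and 14217 named genes. Lox, Col1a1, Col1a2 and Sparc had 2 probe sets each and the other genes had 1 each. No filter on level was applied, so all 14 were tested.

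Male Harlan Sprague Dawley rats, 7 weeks old when dosing began, were gavaged daily for 5 days with PBDE47 dissolved in corn oil, and the liver was taken on the day after the last dose. There were 6 groups of 6 animals: vehicle (corn oil alone) and PBDE47 in steps of 10-fold from 0.0485 to 485 mg/kg. RNA of the left liver lobe was measured on 1 Affymetrix expression array per animal. The vehicle animals shared the gavage and the oil, and no group carried a genetic change.

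Lysyl oxidase is a secreted copper enzyme that oxidizes lysines of collagen and elastin, which lets the fibres crosslink. Loxl1 is a paralog best known for its work on elastic fibres. Type I collagen is built from the products of Col1a1 and Col1a2 and type III collagen from that of Col3a1, and both form fibrils in the stroma of the liver. Much of this matrix comes from stellate cells, the vitamin A-storing pericytes of the sinusoid, and from portal fibroblasts.

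RefSeq promoter sequences on GRCr8 were found for 6 of the 10 genes (Loxl1, Col1a2, Sparc, Lrat, Des and Rgs5). Lox, Col1a1, Col3a1 and Dcn are the others. Shown are the 250 bases before the annotated start, 5' to 3' on the gene's strand, for Rgs5, which rose at the high doses, for Loxl1, the paralog of Lox, and for Col1a2, a collagen chain that was not called at any dose. Capitals mark TATAAA or CCAAT on either strand.
Rgs5, chr13:84380827-84381076, plus strand: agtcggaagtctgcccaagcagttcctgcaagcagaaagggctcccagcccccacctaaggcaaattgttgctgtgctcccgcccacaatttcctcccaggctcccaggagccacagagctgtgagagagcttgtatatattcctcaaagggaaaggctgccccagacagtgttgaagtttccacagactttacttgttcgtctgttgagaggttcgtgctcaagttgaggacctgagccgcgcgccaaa
Loxl1, chr8:67612225-67612474, minus strand: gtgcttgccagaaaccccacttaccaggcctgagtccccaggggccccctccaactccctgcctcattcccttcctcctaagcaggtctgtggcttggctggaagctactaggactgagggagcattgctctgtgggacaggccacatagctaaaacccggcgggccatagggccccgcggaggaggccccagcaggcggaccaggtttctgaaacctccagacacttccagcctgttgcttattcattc
Col1a2, chr4:33518307-33518556, plus strand: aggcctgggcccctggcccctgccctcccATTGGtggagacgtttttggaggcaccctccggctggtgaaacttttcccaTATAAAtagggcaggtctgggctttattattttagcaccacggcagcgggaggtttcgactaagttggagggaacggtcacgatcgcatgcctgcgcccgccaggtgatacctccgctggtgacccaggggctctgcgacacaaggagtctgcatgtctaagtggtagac
The Col1a2 sequence holds TATAAA at bases -170 to -165 and CCAAT, on the other strand, at -221 to -217, counted back from the annotated start. The Rgs5 and Loxl1 sequences hold neither. Lrat holds CCAAT at -80 to -76, and Sparc and Des hold neither motif. Of 33469 promoter sequences of this length, 12.9% hold TATAAA and 34.0% hold CCAAT on either strand. The CArG box, the element bound by serum response factor, was in none of the 6 and in 1.50% of all. These matches describe the letters of the windows only.

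Values are log2 RMA values, a scale on which 1 unit is a doubling of signal, and array medians ran from 5.31 to 5.38. Differences are log2 changes with the standard error (SE) of a limma model over all 36 arrays. A call means an adjusted p under 0.05, by Benjamini-Hochberg over 31042 probe sets. The array of 4.85 mg/kg replicate 6 stood apart, with a mean correlation of 0.9906 with its group against 0.9926 to 0.9951 for the others. Tests of 4.85 mg/kg against vehicle, of 48.5 against 4.85 mg/kg for Lox and Rgs5, and correlations are given with and without it, while means and ranges of that dose include it. The hepatocyte marker Alb stood at 15.06 in vehicle livers, where the highest value of an array ran from 15.05 to 15.07. Alb thus lay at the top of the scale, where a change may not show. Of the stellate cell genes, Lrat lay above the array medians in vehicle at 8.46, while Des at 5.65 and Rgs5 at 5.59 lay close to them. In whole liver, fewer cells of a type and less RNA per cell cannot be told apart.

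Lox signal was far lower in livers of the 2 highest doses, and among vehicle livers it varied more than any of the other genes except Dcn. On probe set 1368171_at Lox ran from 7.51 to 9.82 (median 8.87) in vehicle livers, from 6.75 to 8.57 (median 7.14) at 0.0485 mg/kg and from 6.57 to 8.74 (median 7.89) at 0.485 mg/kg. Each of these doses had a lower median than vehicle, but some of its animals lay inside the vehicle range. Lox ran from 6.44 to 8.66 (median 7.06) at 4.85 mg/kg, from 4.91 to 7.17 (median 6.42) at 48.5 mg/kg and from 4.97 to 6.02 (median 5.94) in the livers given 485 mg/kg. The number of livers below the lowest vehicle liver was 4, 3, 5, 6 and 6 of 6 from the lowest dose to the highest. Complete separation below vehicle occurred for 0.677% of all probe sets at 48.5 mg/kg and for 3.03% at 485 mg/kg, and nothing is read from these contrasts for Lox, since they chose it.

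Group means of Lox were 8.70 ± 0.89 in vehicle, 7.36 ± 0.68 at 0.0485 mg/kg, 7.82 ± 0.86 at 0.485 mg/kg, 7.27 ± 0.74 at 4.85 mg/kg, 6.28 ± 0.80 at 48.5 mg/kg and 5.75 ± 0.41 in the 485 mg/kg group (SD, n = 6 each). Ordered by level the groups ran vehicle, 0.485, 0.0485, 4.85, 48.5 and 485 mg/kg, and the ranges of neighbours in this order overlapped in every case. The log2 difference from vehicle was -2.41 ± 0.40 (SE), or 5.33-fold lower, at 48.5 mg/kg and -2.95 ± 0.40, or 7.71-fold lower, at 485 mg/kg, given as a description. The step between those doses was -0.53 ± 0.40. Set against 4.85 mg/kg, with no vehicle liver involved, Lox at 48.5 mg/kg differed by -0.99 ± 0.40. Without the array that stood apart this difference was -1.16 ± 0.42. The livers of 48.5 and 485 mg/kg chose Lox, so these steps are also only a description.

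The second Lox probe set, 1368172_a_at, followed the first, with r = 0.97 between them over the 36 arrays. Its means were 7.63 ± 0.88 in vehicle, 6.35 ± 0.67 at 0.0485 mg/kg, 6.75 ± 0.68 at 0.485 mg/kg, 6.19 ± 0.69 at 4.85 mg/kg, 5.32 ± 0.64 at 48.5 mg/kg and 4.90 ± 0.20 in the 485 mg/kg group (SD, n = 6 each). Both probe sets read the same RNA and are no replicates of each other. At 485 mg/kg the 6 values of the second, 4.70 to 5.14, lay below every array median. No detection call was used here, so its difference of -2.73 ± 0.35 is not an exact measure of the change in RNA.

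**Figure D1:**
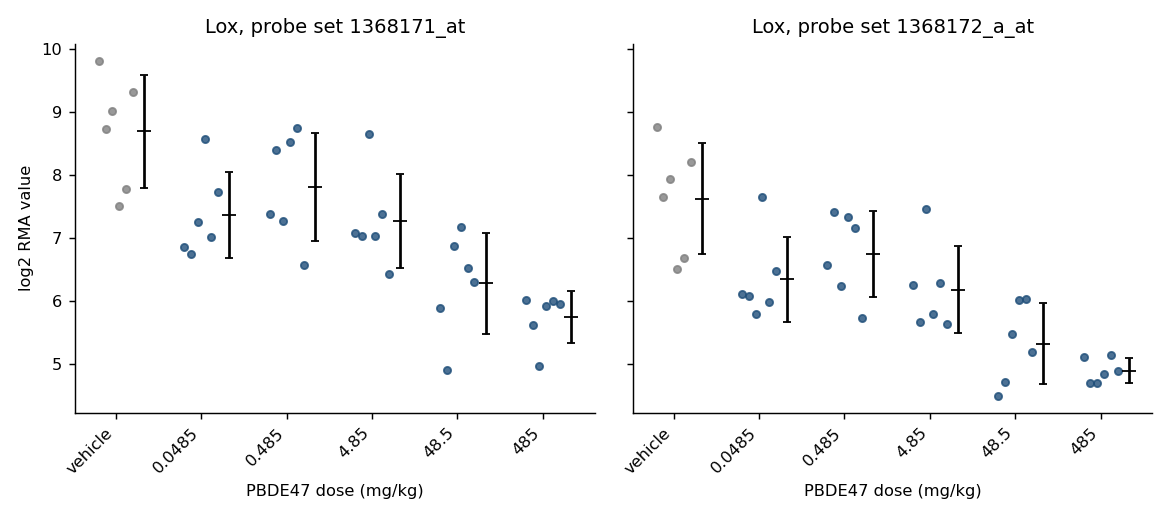
Lox signal in each of 36 livers (log2 RMA value, vertical axis) by PBDE47 dose in mg/kg (horizontal axis), for both Lox probe sets; points are animals, and bars are group means with SD (n = 6). All 6 livers at 48.5 mg/kg and all 6 at 485 mg/kg lie below the lowest vehicle liver, and the vehicle livers span 7.51 to 9.82 on 1368171_at.

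At each dose below 48.5 mg/kg the mean of Lox was lower than in vehicle, and no difference was called. The log2 difference from vehicle was -1.33 ± 0.40 (SE) at 0.0485 mg/kg (adjusted p = 1.00 in limma), -0.88 ± 0.40 at 0.485 mg/kg (adjusted p = 1.00) and -1.42 ± 0.40 at 4.85 mg/kg (adjusted p = 0.364). These 3 comparisons share their vehicle livers with the ones that chose Lox, so they are given as a description only. Without 4.85 mg/kg replicate 6 the value at that dose was -1.26 ± 0.42 (adjusted p = 0.555). Over vehicle and the 3 lowest doses the slope of Lox was -0.38 ± 0.14 per dose step (adjusted p = 0.821 in limma), and -0.34 ± 0.15 without that array. The trend also rests on the vehicle livers that chose Lox, and nothing is read from its p, adjusted or not. Of the 9 other genes limma called 0 in this trend, as did the ordinary test, where 0.00644% of all probe sets were called. At an unadjusted p under 0.05 stood 0 of the 9, beside 5.61% of all.

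Of the 9 genes other than Lox, none was called lower and Rgs5 was called higher at both of the highest doses. At 48.5 mg/kg limma called 1 of 9 higher, where 2.57% of all probe sets were higher, and 0 lower, where 0.821% were (3.39% in all). At 485 mg/kg it called 1 of 9 higher, where 7.81% of all were higher, and 0 lower, where 7.22% were (15.0% in all). Over the named genes, each on its probe set with the highest mean, the shares were larger. Of these genes 4.03% were higher and 1.08% lower at 48.5 mg/kg, and 11.5% higher and 9.43% lower at 485 mg/kg. At an unadjusted p under 0.05 stood 1 of 9 at 48.5 mg/kg and 1 of 9 at 485 mg/kg, beside 15.5% and 25.9% of all probe sets. The ordinary test called 1 at each dose. The median log2 difference of the 9 genes was -0.08 at 48.5 mg/kg and -0.07 at 485 mg/kg, against -0.000817 and -0.00868 over all named genes.

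Loxl1, on probe set 1388902_at, ran from 5.71 to 6.53 (median 6.13) at 485 mg/kg, against 5.95 to 6.45 (median 6.33) in vehicle. At 48.5 mg/kg it ran from 5.93 to 6.93 (median 6.56). Both ranges overlap that of vehicle, with 4 of 6 livers above it and 1 below it at 48.5 mg/kg, and 1 above it and 2 below it at 485 mg/kg. The difference was 0.21 ± 0.15 (SE) at 48.5 mg/kg (adjusted p = 0.558 in limma) and -0.14 ± 0.15 at 485 mg/kg (adjusted p = 0.633), with a 95% interval of -0.46 to 0.17 at the top dose that allows a reduction of up to 1.37-fold. Loxl1 means (SD, n = 6 each), from vehicle up through the doses, were 6.27 ± 0.19, 5.91 ± 0.22, 6.14 ± 0.19, 6.36 ± 0.34, 6.48 ± 0.39 and 6.12 ± 0.32, lowest at 0.0485 mg/kg and highest at 48.5 mg/kg. The paralogs Loxl2 and Loxl3 stood at -0.24 ± 0.17 and 0.13 ± 0.08 at 485 mg/kg (adjusted p = 0.403 and 0.319 in limma). Their vehicle levels were 5.84 and 4.44. That of Loxl3 lay below every array median, so a fall may not show on its probe set.

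The fibrillar collagens were not called at any dose. Col1a1, on 1370864_at, ran from 6.81 to 7.23 (median 7.00) at 485 mg/kg, against 6.42 to 7.56 (median 7.01) in vehicle. All livers of the top dose lay inside the vehicle range, and the difference was 0.01 ± 0.16 (SE, adjusted p = 0.984 in limma). Its 95% interval, -0.33 to 0.34, reaches a reduction of up to 1.25-fold, in livers where Lox was 7.71-fold lower. At 48.5 mg/kg Col1a1 differed by -0.10 ± 0.16 (adjusted p = 0.842). Col1a1 means (SD, n = 6 each), from vehicle up through the doses, were 7.00 ± 0.41, 6.50 ± 0.23, 6.75 ± 0.18, 6.89 ± 0.38, 6.90 ± 0.35 and 7.01 ± 0.19, lowest at 0.0485 mg/kg and highest at 485 mg/kg. The second Col1a1 probe set, 1388116_at, gave -0.22 ± 0.18 and -0.06 ± 0.18 against vehicle at 48.5 and 485 mg/kg.

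Col1a2, the partner chain, ran on 1370155_at from 7.76 to 9.04 (median 8.61) at 485 mg/kg, against 7.97 to 9.34 (median 8.50) in vehicle. At the top dose 1 liver lay below the vehicle range and 0 above it. The difference was -0.04 ± 0.24 (SE, adjusted p = 0.943 in limma, 95% interval -0.53 to 0.44), and it was -0.06 ± 0.24 at 48.5 mg/kg (adjusted p = 0.946). Col1a2 means (SD, n = 6 each), from vehicle up through the doses, were 8.59 ± 0.59, 8.39 ± 0.33, 8.53 ± 0.32, 8.42 ± 0.48, 8.53 ± 0.47 and 8.54 ± 0.45, lowest at 0.0485 mg/kg and highest in vehicle. Its other probe set, 1387854_at, gave 0.11 ± 0.27 and 0.03 ± 0.27 against vehicle at 48.5 and 485 mg/kg.

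Col3a1, on 1370959_at, ran from 10.64 to 11.63 (median 11.23) at 485 mg/kg, against 10.81 to 11.85 (median 11.48) in vehicle. The ranges overlapped except for 1 liver of the top dose below the vehicle range. The difference was -0.16 ± 0.17 (SE, adjusted p = 0.632 in limma, 95% interval -0.50 to 0.19) and -0.14 ± 0.17 at 48.5 mg/kg (adjusted p = 0.762). Col3a1 means (SD, n = 6 each), from vehicle up through the doses, were 11.38 ± 0.43, 11.24 ± 0.13, 11.43 ± 0.22, 11.28 ± 0.34, 11.24 ± 0.28 and 11.23 ± 0.37, lowest at 485 mg/kg and highest at 0.485 mg/kg. On the probe sets with the highest mean, the widest reduction that an interval of these 3 chains allows at 485 mg/kg is 1.45-fold, for Col1a2.

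Sparc, a secreted glycoprotein that binds collagen, ran on 1367563_at from 10.43 to 11.14 (median 10.75) at 485 mg/kg, against 10.31 to 11.25 (median 10.86) in vehicle. All livers of the top dose lay inside the vehicle range. The difference was -0.08 ± 0.13 (SE) at 48.5 mg/kg (adjusted p = 0.831 in limma) and -0.06 ± 0.13 at 485 mg/kg (adjusted p = 0.850). Sparc means (SD, n = 6 each), from vehicle up through the doses, were 10.82 ± 0.35, 10.73 ± 0.19, 10.84 ± 0.19, 10.79 ± 0.26, 10.73 ± 0.18 and 10.76 ± 0.24, lowest at 0.0485 mg/kg and highest at 0.485 mg/kg. Its other probe set, 1367562_at, gave 0.05 ± 0.15 and -0.10 ± 0.15 against vehicle at 48.5 and 485 mg/kg.

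Dcn encodes decorin, a small proteoglycan that coats collagen fibrils. On 1370956_at it ran from 6.27 to 7.42 (median 6.67) at 485 mg/kg, against 6.03 to 8.23 (median 6.78) in vehicle, a range that holds all 6 livers of the top dose. The difference was -0.29 ± 0.38 (SE) at 48.5 mg/kg (adjusted p = 0.783 in limma) and -0.15 ± 0.38 at 485 mg/kg (adjusted p = 0.862). Dcn means (SD, n = 6 each), from vehicle up through the doses, were 6.95 ± 0.94, 6.55 ± 0.61, 6.80 ± 0.64, 6.47 ± 0.66, 6.66 ± 0.83 and 6.80 ± 0.50, lowest at 4.85 mg/kg and highest in vehicle. Its interval at 485 mg/kg, -0.92 to 0.62, is the widest of the 9 genes and allows a reduction of up to 1.90-fold.

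**Figure D2:**
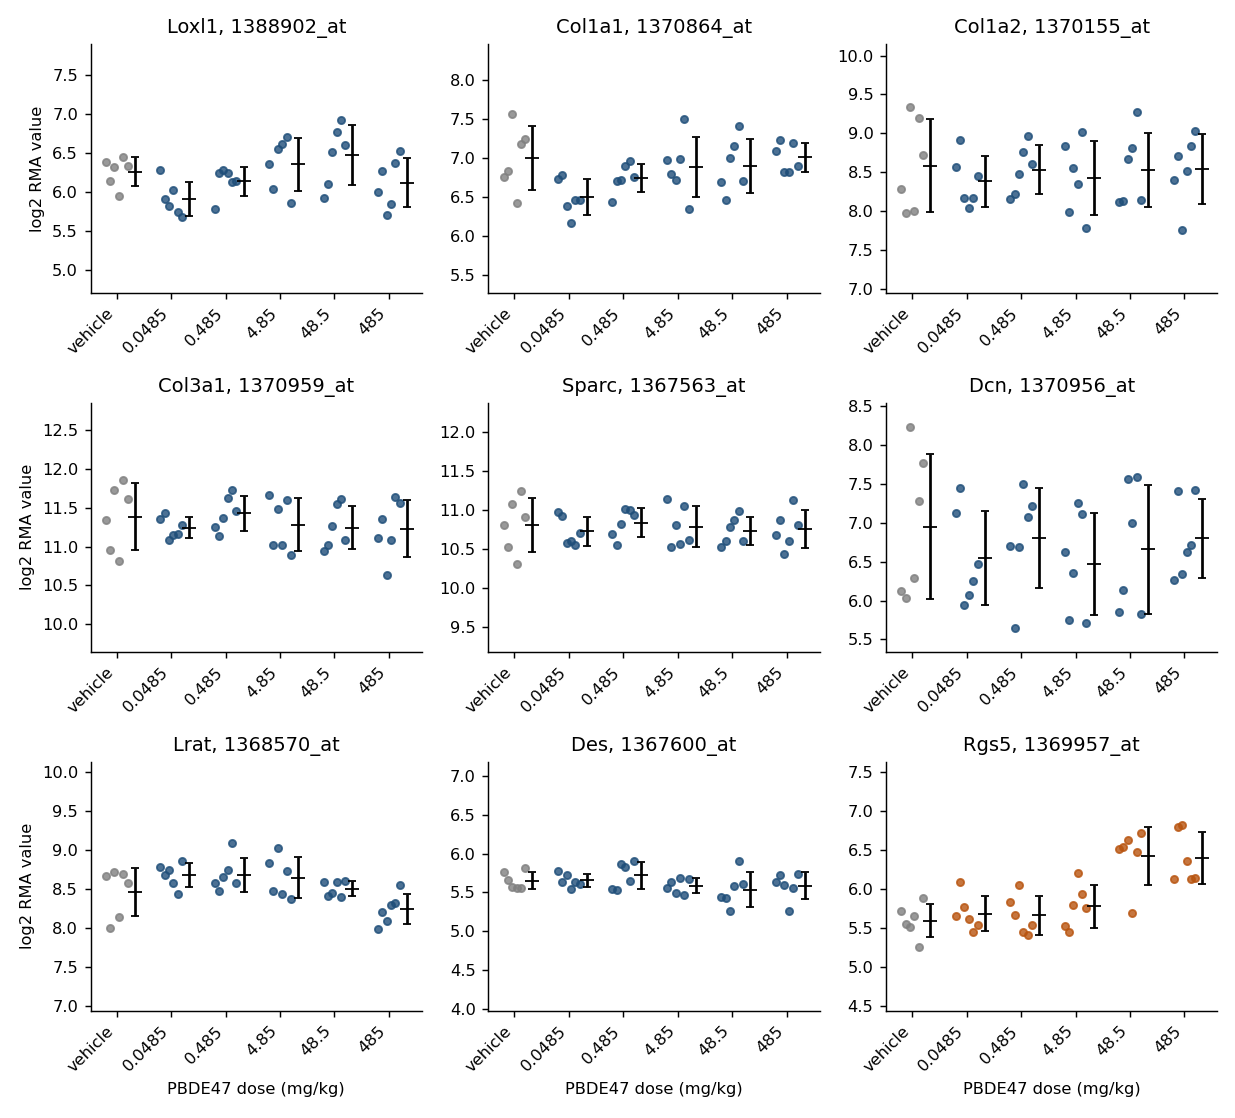
Signal of the 9 other genes in each liver (log2 RMA value, vertical axis, every panel spanning the same range) by PBDE47 dose in mg/kg (horizontal axis), on the probe set of each gene with the highest mean; points are animals, and bars are group means with SD (n = 6). Rgs5 stands at 6.13 to 6.82 at 485 mg/kg, above all vehicle livers, while in the other 8 panels the 485 mg/kg and vehicle livers overlap.

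Among the stellate cell genes, Lrat encodes lecithin retinol acyltransferase, which makes the retinyl esters these cells store. On 1368570_at it ran from 7.99 to 8.55 (median 8.25) at 485 mg/kg, against 8.00 to 8.72 (median 8.62) in vehicle. All but 1 liver lay inside the vehicle range, and the difference was -0.22 ± 0.12 (SE, adjusted p = 0.247 in limma). Lrat means (SD, n = 6 each), from vehicle up through the doses, were 8.46 ± 0.31, 8.68 ± 0.15, 8.68 ± 0.22, 8.65 ± 0.26, 8.51 ± 0.09 and 8.24 ± 0.20, lowest at 485 mg/kg and highest at 0.485 mg/kg. At the 4 lower doses, from 0.0485 to 48.5 mg/kg, the Lrat difference from vehicle was 0.22 ± 0.12, 0.22 ± 0.12, 0.18 ± 0.12 and 0.04 ± 0.12, with adjusted p from 0.865 to 1.00 in limma. Without replicate 6 it was 0.24 ± 0.12 at 4.85 mg/kg (adjusted p = 0.731 in limma).

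Des encodes desmin, the intermediate filament used to mark stellate cells in rat liver. On 1367600_at it ran from 5.26 to 5.74 (median 5.62) at 485 mg/kg, against 5.55 to 5.81 (median 5.61) in vehicle, and 1 liver of the top dose lay below the vehicle range. The difference was -0.12 ± 0.09 (SE) at 48.5 mg/kg (adjusted p = 0.568 in limma) and -0.07 ± 0.09 at 485 mg/kg (adjusted p = 0.697). Des means (SD, n = 6 each), from vehicle up through the doses, were 5.65 ± 0.11, 5.66 ± 0.08, 5.72 ± 0.17, 5.59 ± 0.10, 5.54 ± 0.22 and 5.58 ± 0.17, lowest at 48.5 mg/kg and highest at 0.485 mg/kg.

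Rgs5, a regulator of G protein signalling found in pericytes, rose at the 2 highest doses. On 1369957_at it ran from 5.69 to 6.72 (median 6.53) at 48.5 mg/kg and from 6.13 to 6.82 (median 6.25) at 485 mg/kg, against 5.25 to 5.88 (median 5.60) in vehicle. At 48.5 mg/kg 5 of 6 livers lay above the highest vehicle liver. All 6 did so at 485 mg/kg, as happened for 4.30% of all probe sets at that dose. The rise was 1.78-fold (log2 0.84 ± 0.15 SE, adjusted p = 0.000853 in limma) at 48.5 mg/kg and 1.75-fold (log2 0.81 ± 0.15 SE, adjusted p = 0.000177 in limma) at 485 mg/kg. Means at the 3 lower doses were 5.68 ± 0.22, 5.66 ± 0.25 and 5.78 ± 0.27 (SD, n = 6 each), beside 5.59 ± 0.21 in vehicle.

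Set against 4.85 mg/kg, with no vehicle liver in the comparison, Rgs5 was also higher at 48.5 mg/kg. It ran from 5.69 to 6.72 (median 6.53) at 48.5 mg/kg, against 5.45 to 6.21 (median 5.78) at 4.85 mg/kg, and the groups overlapped. The difference was 0.65 ± 0.15 (SE, adjusted p = 0.0249 in limma). It was the 1 call among the 9 genes, where 1.18% of all probe sets (367) were called, or 155 to 437 with single arrays left out, and 0.886% were called higher; at an unadjusted p under 0.05 stood 1 of 9, beside 12.4% of all. The call was lost without 4.85 mg/kg replicate 1 (adjusted p = 0.0709) or 2 (0.0733), without 48.5 mg/kg replicate 2 (0.0548), 5 (0.0629) or 6 (0.0820), and in a limma fit on 12 arrays (0.0923). Without 4.85 mg/kg replicate 6 it was 0.64 ± 0.16 (adjusted p = 0.0445 in limma).

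Between the 2 highest doses limma and the ordinary test called 0 of the 9 genes, where limma called 4.86% of all probe sets. Rgs5 at 485 mg/kg stood at -0.03 ± 0.15 (SE) against 48.5 mg/kg (adjusted p = 0.962 in limma). At an unadjusted p under 0.05 stood 2 of 9, beside 15.8% of all: Loxl1 (-0.35 ± 0.15, adjusted p = 0.230) and Lrat (-0.26 ± 0.12, adjusted p = 0.258).

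**Figure D3:**
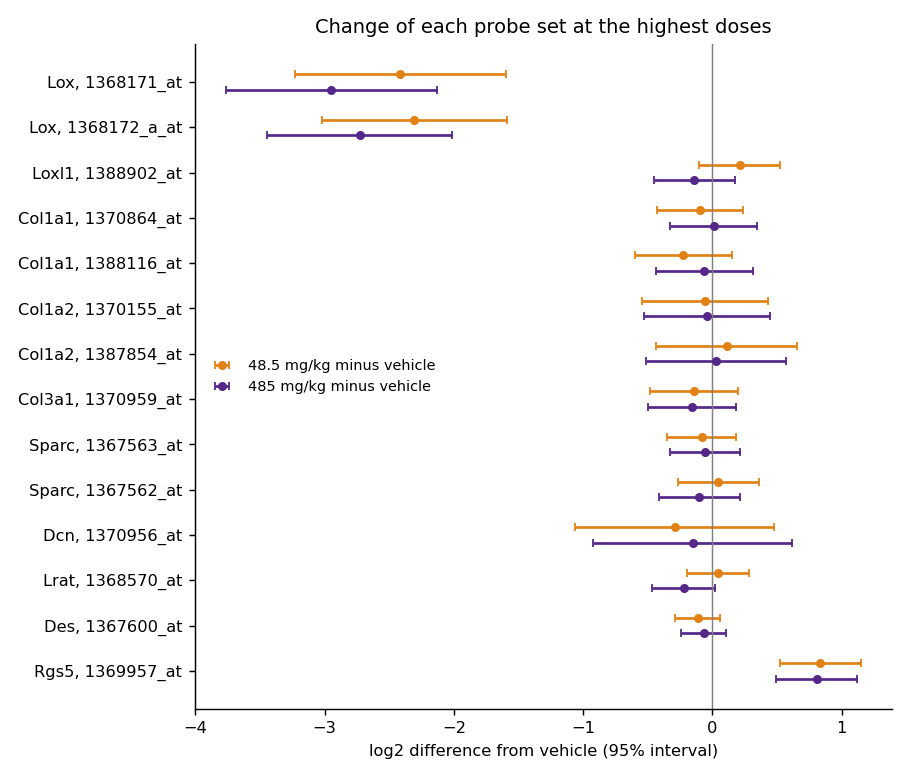
Log2 difference from vehicle (horizontal axis) with its 95% interval from limma for each of the 14 probe sets (vertical axis), at 48.5 mg/kg and at 485 mg/kg. Lox on 1368171_at stands at -2.41 and -2.95 and Rgs5 at 0.84 and 0.81, while the intervals of the probe sets of the other 8 genes include 0.

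At the 3 lowest doses limma and the ordinary test called 0 of the 9 genes other than Lox. Of all probe sets limma called 0.00% at the lowest dose, 0.00% at the next and 0.0193% at 4.85 mg/kg. At an unadjusted p under 0.05 stood 2, 0 and 0 of the 9 genes other than Lox at these doses, beside 4.89%, 4.45% and 6.46% of all. The 2 at 0.0485 mg/kg were Col1a1 (-0.50 ± 0.16 SE) and Loxl1 (-0.35 ± 0.15). At 0.0485 mg/kg Col1a1 ran from 6.17 to 6.78 (median 6.46), with 2 of 6 livers below the vehicle range, and Loxl1 ran from 5.68 to 6.28 (median 5.87), with 4 of 6 below it.

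Without replicate 6 of 4.85 mg/kg none of the other 9 genes was called at that dose, with log2 differences from -0.33 for Dcn to 0.24 for Lrat (adjusted p from 0.731 to 0.998 in limma).

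Among livers of the same dose, the collagens, Sparc and Dcn varied together more closely than any of them did with Lox. These values are correlations of deviations from the dose group mean over 36 livers, given as a description, and they share 1 array and 1 RNA sample per animal. Col3a1 correlated with Col1a2 at r = 0.94 and with Sparc at 0.94, Col1a1 with Col1a2 at 0.83, and Dcn with Col1a2 at 0.82. Lrat and Loxl1 correlated with Col3a1 at 0.71 and 0.70, while Des and Rgs5 stood at 0.17 and -0.36 with it. Without replicate 6 of 4.85 mg/kg these values, in the same order, were 0.93, 0.95, 0.82, 0.81, 0.69, 0.67, 0.21 and -0.38.

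Whether Lox varied with the other 9 genes among livers of the same dose was tested by permuting livers within dose groups (100000 permutations, two-sided, n = 36). After Benjamini-Hochberg adjustment 0 of 9 relations passed by Pearson's r or Spearman's rho, and 3 of 9 had an unadjusted p under 0.05. With Loxl1 r was 0.44 (permutation p = 0.00971, adjusted p = 0.0874) and rho 0.38 (permutation p = 0.0260, adjusted p = 0.118). With Lrat r was 0.43 (permutation p = 0.0221, adjusted p = 0.0994) and rho 0.40 (permutation p = 0.0277, adjusted p = 0.118). With Col3a1 r was 0.37 (permutation p = 0.0417, adjusted p = 0.125) and rho 0.37 (permutation p = 0.0393, adjusted p = 0.118). These 3 relations were positive, and none passed after adjustment. Over the 31041 other probe sets the median r with Lox within dose groups was -0.005, and the middle 95% of them ended at 0.388. The r of Loxl1 and of Lrat lay above that value and the r of Col3a1 below it, given as a description.

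The other 6 relations with Lox ran from r = -0.23 for Rgs5 to 0.26 for Col1a1 (permutation adjusted p from 0.288 to 0.668), and from rho = -0.23 to 0.30 (permutation adjusted p from 0.232 to 0.731). Without the 2 livers farthest from the median of the Lox deviations, 4.85 mg/kg replicate 3 and 48.5 mg/kg replicate 2, r was 0.35 with Loxl1, 0.33 with Lrat and 0.32 with Col3a1 (permutation adjusted p = 0.192, 0.337 and 0.337). Without 4.85 mg/kg replicate 6, an alternative added after seeing the data, r was 0.39 with Loxl1, 0.39 with Lrat and 0.33 with Col3a1 (permutation p = 0.0244, 0.0392 and 0.0737, adjusted p = 0.176, 0.176 and 0.221). Without the livers of 0.0485 mg/kg the relation with Loxl1 passed (r = 0.51, permutation adjusted p = 0.0355).

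**Figure D4:**
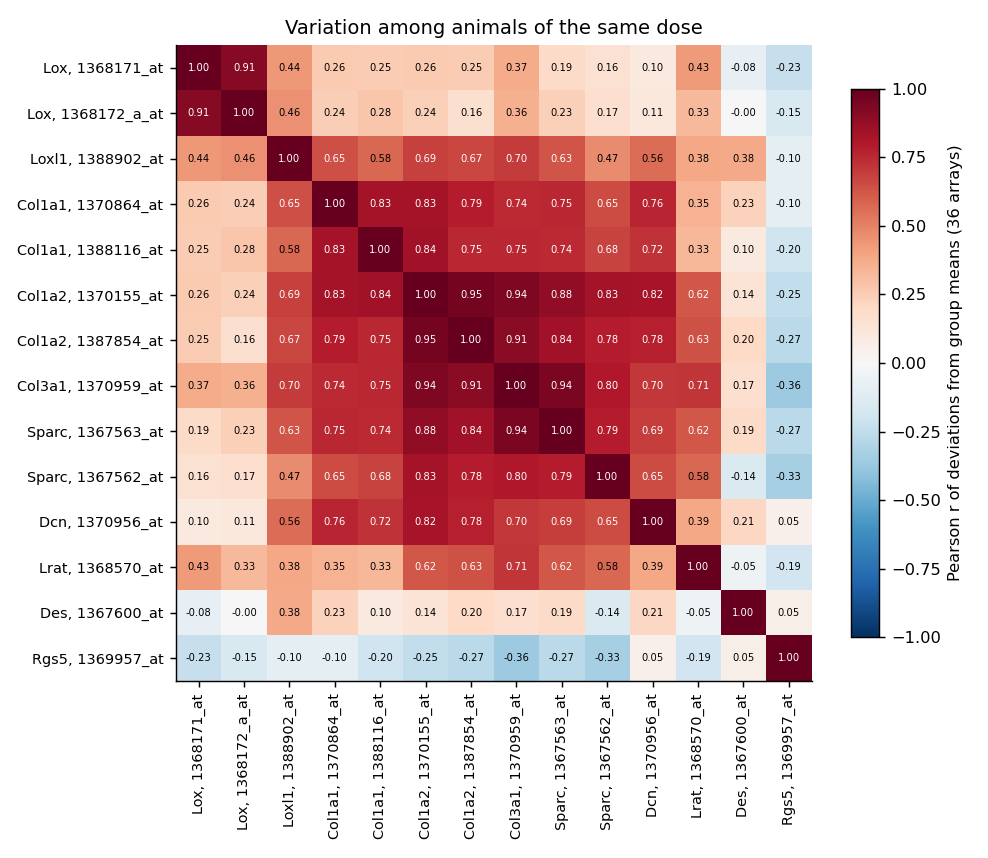
Pearson correlation of deviations from the dose group mean, over 36 livers, between the 14 probe sets (both axes; colour gives r). The Col1a1, Col1a2, Col3a1, Sparc and Dcn probe sets form a block of high values, and Lox on 1368171_at correlates with its second probe set at 0.91 but with these genes at 0.10 to 0.37.

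Across all 36 livers, dose differences included, Lox was compared with the probe sets that name 1 other gene. The 5 most correlated with it belonged to other genes than the collagens. They were Gas6 (r = 0.84), a vitamin K-dependent ligand of TAM receptors, Tpst1 (0.79), a tyrosylprotein sulfotransferase, Cdh2 (0.78), or N-cadherin, Elovl5 (0.78), a fatty acid elongase, and Acadm (0.78), a mitochondrial acyl-CoA dehydrogenase. The median over all 31041 other probe sets, named or not, was 0.02. On the same measure Lrat stood at 0.45, Col3a1 at 0.37, Col1a2 at 0.16, Loxl1 at 0.15, Col1a1 at 0.05 and Rgs5 at -0.68. Gas6 differed from vehicle by -0.50 ± 0.10 (SE) at 48.5 mg/kg and by -0.69 ± 0.10 at 485 mg/kg. These values are a description only, since the same livers entered the correlation that picked Gas6. Within dose groups the 5 highest of the single-gene probe sets were Gpm6a (0.67), Gmcl1 (0.65), Cdh1 (0.61), Itgav (0.61) and Enox2 (0.61). None of these 5 was called at 48.5 or 485 mg/kg (adjusted p from 0.204 to 0.948 in limma). Without 4.85 mg/kg replicate 6 the first 5 stood at r = 0.78 to 0.85 and the last 5 at 0.58 to 0.67.

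Calls in the other gene lists are set against the named genes as a whole. Of 14217 named genes, 4.03% were called higher and 1.08% lower at 48.5 mg/kg, and 11.5% higher and 9.43% lower at 485 mg/kg. Of 14 measured collagen-modifying enzymes and chaperones, 0 were called at 48.5 mg/kg, and 2 fell at 485 mg/kg, beside 9.43% of named genes, with a list median of -0.05 against -0.01 over all of them. They were Bmp1, a procollagen C-proteinase (-0.40 ± 0.08 SE, adjusted p = 0.000445 in limma), and Colgalt1, a collagen galactosyltransferase (-0.21 ± 0.05). Serpinh1, the collagen chaperone of the endoplasmic reticulum, stood at 0.08 ± 0.15 (adjusted p = 0.806 in limma). Of 14 other collagens, 0 were called at 48.5 mg/kg and 1 fell at 485 mg/kg, where 9.43% of named genes fell (list median -0.07), the basement membrane collagen Col18a1 (-0.45 ± 0.07, adjusted p = 1.82e-05 in limma).

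Of 29 other matrix proteins, 2 fell at 48.5 mg/kg and 5 at 485 mg/kg, and 0 rose at either dose (list median -0.07 and -0.19). Of named genes 1.08% and 9.43% fell at these doses. Tgfbi, an adhesion protein induced by TGF-beta, was at -0.23 ± 0.05 (SE) and -0.66 ± 0.05 at these doses, and fibronectin, Fn1, much of it made by hepatocytes, was at -0.58 ± 0.08 at 485 mg/kg. Vitronectin, Vtn, another hepatocyte product, was at -0.14 ± 0.04, while Fbln1 (-0.28 ± 0.06) and Vcan (-0.24 ± 0.09) had vehicle levels of 3.94 and 4.06, below the array medians. Of 14 matrix proteases and inhibitors, 0 were called at 48.5 mg/kg. At 485 mg/kg the proteases Mmp14 (-0.57 ± 0.13) and Plau (-0.48 ± 0.13) fell and Mmp19 (0.32 ± 0.07) rose (list median -0.09), beside 9.43% of named genes lower and 11.5% higher.

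TGF-beta signalling is a known inducer of collagen and Lox. Of 15 measured genes of this signalling and its targets, 1 fell at 48.5 and 1 at 485 mg/kg, in both cases the receptor Tgfbr1 (-0.31 ± 0.09 and -0.49 ± 0.09 SE), and 0 rose (list median -0.02 and -0.11), where 1.08% and 9.43% of named genes fell. Lox is also a known target of hypoxia-inducible factor. Of 16 hypoxia response genes, 2 rose at 48.5 mg/kg and 4 at 485 mg/kg, and 0 fell (list median -0.03 and -0.01), where 4.03% and 11.5% of named genes rose. At 485 mg/kg Egln3, an oxygen-sensing prolyl hydroxylase, was at 1.08 ± 0.15 from a vehicle level of 3.71, the glycolytic Pgk1 at 0.48 ± 0.05, Bnip3 at 0.30 ± 0.09 and the kinase Pdk1 at 0.22 ± 0.08.

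Retinoid handling is shared by stellate cells and hepatocytes. Of 14 measured genes, 2 rose and 0 fell at 48.5 mg/kg, and 3 rose and 1 fell at 485 mg/kg (list median 0.01 and -0.01). Of named genes 4.03% rose at 48.5 mg/kg, and 11.5% rose and 9.43% fell at 485 mg/kg. At the top dose the retinaldehyde dehydrogenase Aldh1a1 (2.02 ± 0.09 SE), the retinol dehydrogenase Rdh10 (0.79 ± 0.09) and the retinaldehyde reductase Dhrs3 (0.41 ± 0.06) rose, and the receptor Rara (-0.22 ± 0.07) fell.

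**Figure D5:**
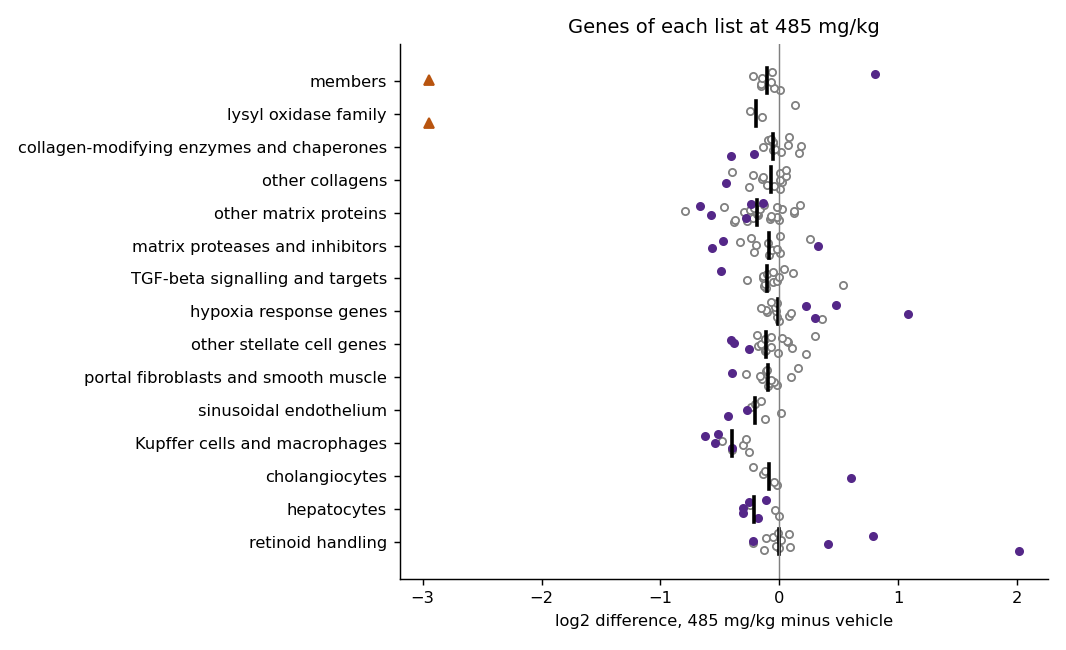
Log2 difference between 485 mg/kg and vehicle (horizontal axis) for each gene of the lists (vertical axis, 1 row per list). Filled circles passed at an adjusted p under 0.05, open circles did not, triangles are Lox (described without a test), and black bars are list medians, such as -0.40 for Kupffer cell markers and -0.01 for retinoid handling.

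Markers of the cell types that could carry these genes were read beside them. Of 19 other stellate cell genes, 0 were called at 48.5 mg/kg and 3 fell at 485 mg/kg, the receptor Pdgfra (-0.41 ± 0.13 SE), the growth factor Hgf (-0.38 ± 0.13) and the lectin Colec11 (-0.25 ± 0.09), where 9.43% of named genes fell. The stellate cell markers Reln and Hand2 stood at 0.02 ± 0.13 and -0.16 ± 0.07 at 485 mg/kg (adjusted p = 0.952 and 0.159 in limma). The mean level of this list ran from 6.76 to 7.18 at 485 mg/kg, against 6.86 to 7.25 in vehicle.

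Of 13 markers of portal fibroblasts and smooth muscle, 0 were called at 48.5 mg/kg and 1 fell at 485 mg/kg, the myosin light chain kinase Mylk (-0.39 ± 0.09 SE), where 9.43% of named genes fell. The pericyte markers Cspg4 and Notch3 stood at -0.02 ± 0.09 and -0.11 ± 0.08 where Rgs5 was at 0.81 ± 0.15 (adjusted p = 0.929 and 0.388 in limma for Cspg4 and Notch3). The mean level of the list ran from 5.71 to 5.90 at 485 mg/kg, against 5.81 to 5.96 in vehicle.

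The next 4 lists are read beside the 9.43% of named genes lower and 11.5% higher at 485 mg/kg. At that dose 4 of 9 Kupffer cell markers fell, among them Clec4f (-0.62 ± 0.18 SE), and the list's mean level ran from 8.26 to 8.88, against 8.94 to 9.18 in vehicle. From 0.0485 to 48.5 mg/kg this level ran from 8.81 to 9.47, 8.40 to 9.18, 8.35 to 9.25 and 8.34 to 9.13. Each of these ranges overlapped that of 485 mg/kg. Of 7 sinusoidal endothelial markers 2 fell, Kdr (-0.43 ± 0.08) and Pecam1 (-0.27 ± 0.09), with a mean level from 8.22 to 8.47 against 8.41 to 8.62 in vehicle. Of 8 hepatocyte markers 5 fell, Apoa1, Ttr, Serpina1, Fgb and Ahsg (list median -0.21), with a mean level from 13.85 to 13.95 against 14.02 to 14.08 in vehicle. Of 6 cholangiocyte markers 1 rose, Epcam (0.60 ± 0.10), with a mean level from 5.24 to 5.41 against 5.17 to 5.71 in vehicle. At 48.5 mg/kg 0 endothelial and 0 Kupffer cell markers were called, the hepatocyte marker Fgb fell (-0.14 ± 0.04 SE) and Epcam rose (0.40 ± 0.10). At 485 mg/kg the medians of these 4 lists lay between -0.40 and -0.08, beside -2.95 for Lox, and their part in its level was not tested.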

How the data were processed

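The deposited values are on a log2 scale and were produced by the authors with RMA (affy), per the submitters' processing notes; versions are not given in the sources used here. RMA normalizes quantiles between arrays, so a shift shared by all genes is removed. The number of arrays limits the precision. Of 31099 probe sets, 57 controls were left out, 20826 name 1 gene (20758 matched to RefSeq by Entrez ID), 436 several and 9780 none. Each gene is represented by its single-gene probe set with the highest mean.

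Tests were two-sided, in limma 3.58.1 (R 4.3.3), on 1 model over 36 arrays; the ordinary test of that model stands in for R/maanova, which the study named and which was not used. Permutations used numpy 2.4.6. The limma contrast of 485 mg/kg with vehicle was tested on simulated data with independent noise for each probe set. The trend and the permutation test were not. The genes, lists and tests were chosen with earlier results of these data known. Besides the 10 genes, the rule names up to 4 called genes per list with the largest change at 48.5 or 485 mg/kg, defining markers and the 5 genes most like Lox on each measure; Loxl2, Loxl3, Serpinh1, Vtn and Ttr were named after their values were seen. Alternatives varied normalization, filter, moderation, weights, probe set, replicate block and arrays. Animals are the replicates, and same-numbered animals of different groups are not stated to be related: of 90 such pairs, 19 had deviations correlated above 0.1. The median r of these pairs was 0.01, beside -0.004 for pairs with different numbers.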

Additional observations from a re-analysis of the deposited data

Results flagged for a closer look

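For each of the 84 sets of 6 values (14 probe sets in 6 groups), the gap between the most extreme liver and its nearest neighbour was set against the range by Dixon's rule. It was too large in 4 sets, and chance alone gives about 1 in 20. Rgs5 in replicate 4 of 48.5 mg/kg was 5.69, against 6.47 to 6.72 in the other 5 livers of that dose. Without that liver the rise of Rgs5 at 48.5 mg/kg was 0.98 ± 0.14 (SE, adjusted p = 2.06e-05 in limma).

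The second Lox probe set in replicate 4 of 0.0485 mg/kg was 7.65, against 5.79 to 6.48 in the other livers of that dose. On the same probe set replicate 3 of 4.85 mg/kg was 7.47, against 5.64 to 6.29. Loxl1 in replicate 1 of 0.485 mg/kg was 5.78, against 6.14 to 6.28.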

How the results depend on the processing

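Of 2079 comparisons of a value with an alternative, 2065 were counted as the same. In the rest, 6 lost a call, 1 gained one and 7 counts moved. For a gene not called, the same means that it stayed uncalled, whatever its sign. Col1a1 at 485 mg/kg, for example, ran from -0.11 to 0.12. Lox at 48.5 and 485 mg/kg, which was not tested, had to keep its sign and shift by less than its within-group SD. Of called values and these Lox values, 0 reversed. At 48.5 and at 485 mg/kg 1 of the 9 genes other than Lox was called under every alternative run, and the adjusted p of Rgs5 ran from 2.06e-05 to 0.00844 and from 0.000104 to 0.00111 at these doses. For 48.5 against 4.85 mg/kg the count of 1 became 0 in the fit on 12 arrays, which has fewer samples, and ran from 0 to 1 when single arrays were left out. The count of correlations with Lox was 0, and 1 without the group of 0.0485 mg/kg; the cause was not tested. With single arrays left out, the difference of Lox from vehicle ran from -2.65 to -2.14 at 48.5 mg/kg and from -3.18 to -2.72 at 485 mg/kg. The replicate number as a block changed no call among these genes: Rgs5 stood at 0.84 at 48.5 mg/kg and 0.81 at 485 mg/kg, and 11 of 36 arrays correlated best with their own number. Over all probe sets the count of calls at 48.5 mg/kg, 1052, ran from 556 to 1407 over the alternatives other than left-out arrays, and that for 48.5 against 4.85 mg/kg, 367, from 171 to 584. With single arrays left out these counts ran from 678 to 1138 and from 155 to 437. The largest moves were 678 at 48.5 mg/kg against vehicle without 48.5 mg/kg replicate 5, and for 48.5 against 4.85 mg/kg 155 without 48.5 mg/kg replicate 5, 174 without replicate 6 of that dose, 212 without 4.85 mg/kg replicate 1 and 228 without replicate 3 of that dose. Over the alternatives other than left-out arrays, 485 against 48.5 mg/kg gave 880 to 1767 beside 1509. Signal near or below the array medians limits Lox at 485 mg/kg and Des, Rgs5 and Loxl3 in vehicle.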
